A study of Rattus norvegicus with 32 samples.

Results

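The comparison described here set liver sinusoidal endothelial cells (LSECs) from rats with cirrhosis after inhaled carbon tetrachloride (CCl4) against LSECs from healthy rats. Its members were chosen by the treatment label of each library, "CCL4 treated rat" against "Untreated rat", and were 12 of the 32 libraries of the series. All 12 animals were Wistar Han rats, and the methods give male sex for those that inhaled CCl4. The 6 rats of the cirrhosis group inhaled CCl4, a hepatotoxin, for 12 to 14 weeks by the description of the series, and the 6 healthy rats were untreated. Drinking water held phenobarbital, an inducer of liver enzymes, in the CCl4 model, and the sources used here do not say whether the healthy rats drank it too, so an effect of phenobarbital and one of CCl4 cannot be told apart. Cells were isolated some days after the last dose and enriched by a density gradient rather than by a sort on a surface marker. The age of the rats was not given in the sources used here. Poly(A) RNA of each preparation was sequenced, and the deposited values are estimated counts of reads for 32623 genes.

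LSECs line the sinusoids, the capillaries of the liver. They carry open pores called fenestrae, lack an organised basement membrane, and clear macromolecules from portal blood through scavenger receptors such as the stabilins. In chronic injury they are known to lose fenestrae and to acquire features of ordinary capillaries, a process named capillarization, and to take part in vascular tone, coagulation, leukocyte recruitment and matrix turnover. In a bulk library a lower level of a gene can come from fewer cells of a type or from less RNA per cell, and these cannot be told apart.

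Total counts ranged from 33742382 to 41228835 in healthy and from 38812871 to 46464289 in cirrhotic libraries, so that depth moved with the group and its part in the results was not tested. Scaling factors by the trimmed mean of M-values (TMM) were between 0.768 and 1.07 in healthy and between 1.09 and 1.15 in cirrhotic libraries. Levels are given as CPM, counts scaled to a library total of 1000000 after each total was multiplied by its TMM factor. On the log2 scale of CPM, healthy libraries varied more among themselves. The median standard deviation (SD) of a gene was 0.460 in healthy and 0.224 in cirrhotic LSECs, and 87.5% of the genes were more variable in healthy LSECs. Healthy replicates 5 and 6 stood apart from the other healthy libraries. Replicate 6 had a mean distance of 0.965 log2 units (root mean square over genes) to the other healthy libraries and of 0.782 to the cirrhotic ones, and replicate 5 of 1.01 and 0.998. Counts of genes are therefore also given without these libraries where that moves them by over 1.5 times.

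**Figure D1:**
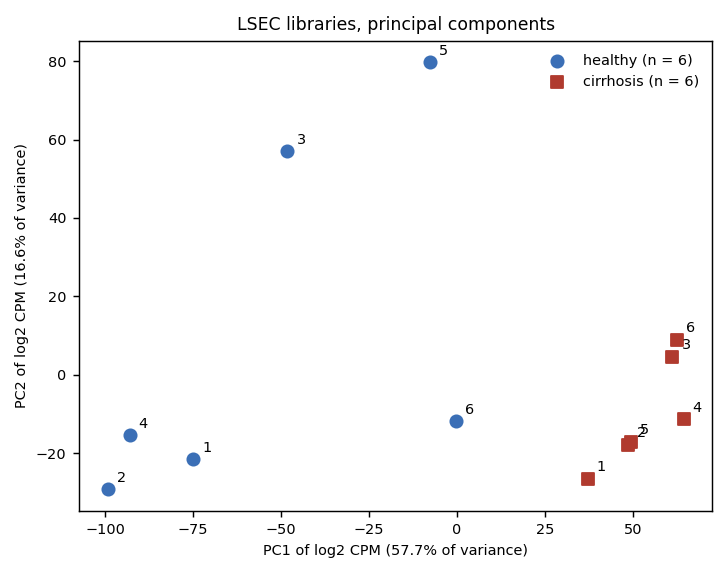
Principal components of log2 CPM of the genes tested, with PC1 on the horizontal and PC2 on the vertical axis, 1 point per library and the replicate number beside it. The 6 cirrhotic libraries lie together at PC1 scores of 37.2 to 64.5, and the healthy libraries spread from -99.3 to -0.32, with replicates 5 and 6 nearest to the cirrhotic ones.

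Markers of LSECs were abundant in every library. Their summed level was 16623 to 29962 CPM in healthy and 15584 to 20260.5 CPM in cirrhotic libraries, and Stab2, Mrc1 and Fcgr2b, which define the cells, were expressed in all 12. RNA of other liver cells was present too. Hepatocyte markers summed to 1362 to 31132 CPM in healthy and 3305 to 15688 CPM in cirrhotic libraries, with the lowest healthy values in replicates 5 and 3. Markers of hepatic stellate cells and fibroblasts summed to 173 to 550.0 CPM in healthy and 469 to 1668 CPM in cirrhotic libraries, and those of T and NK cells to 82.4 to 619.7 and 49.6 to 86.7 CPM.

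**Figure D2:**
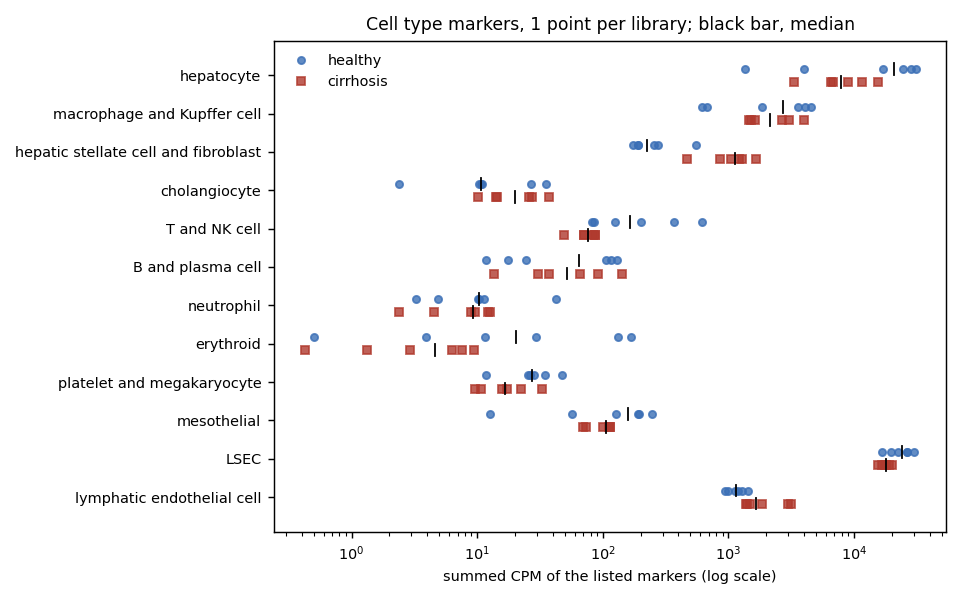
Summed CPM of the listed markers of each cell type on a log axis, 1 point per library, circles for healthy and squares for cirrhotic libraries, with the median as a black bar. Stellate cell and fibroblast markers lie between 173 and 550.0 CPM in healthy and between 469 and 1668 CPM in cirrhotic libraries, and LSEC markers overlap between the groups.

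Of 14789 genes tested, 4002 were higher and 3658 lower in cirrhotic CCl4-LSECs, which is 51.8% of the genes (limma-voom, Benjamini-Hochberg adjusted p under 0.05 and fold-change above 1.5; 27.1% higher and 24.7% lower). These genes are called DEG, for differentially expressed genes. Rises were larger than falls, with 478 DEG more than 4-fold higher and 174 more than 4-fold lower. The 12 libraries did not overlap between the groups in 27.2% of the genes, 11.9% with all cirrhotic libraries higher and 15.3% with all lower. Of the DEG, 52.2% were higher in cirrhosis, and this split rested on the scaling. With library size in place of TMM, 71.3% of 8027 DEG were higher and 28.7% lower, and the median log2 fold change of all genes moved from 0.07 to 0.42. With upper-quartile factors 60.4% were higher and 39.6% lower. Directions below are therefore to be read against the median of all genes. Counts of list members are to be read against the 27.1% of all genes that were higher and the 24.7% that were lower. With library size, 10 lists turned from more members lower to more members higher. These were the lists of LSEC identity and LSEC markers, Notch, CDK inhibitors and p53 targets, hypoxia and glycolysis, fatty acids, cytochromes, the unfolded protein response, endocytosis and the cytoskeleton. Relative to the median of all genes, the medians of all 48 gene lists kept their sign with library size and with DESeq2's size factors. A change of scaling moves all genes by nearly the same amount, so this outcome was close to fixed in advance. It is no support for the directions.

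**Figure D3:**
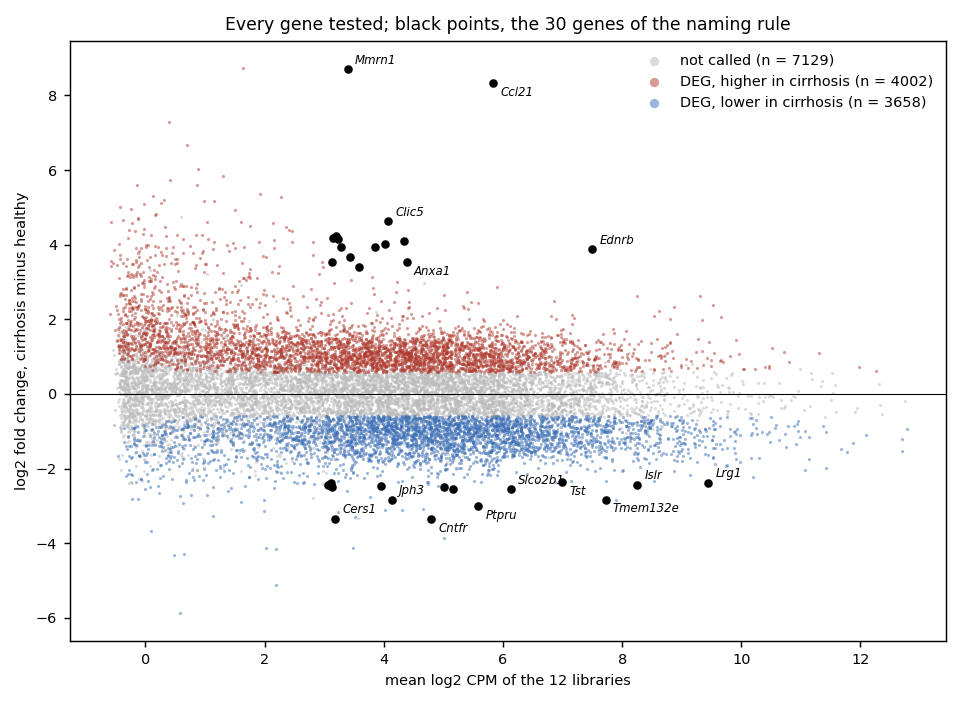
Log2 fold change of cirrhosis minus healthy (vertical axis) against mean log2 CPM of the 12 libraries (horizontal axis) for the 14789 genes tested, with DEG in red (4002 higher) and blue (3658 lower). Black points are the 15 largest rises and, under 0, the 15 largest falls of DEG whose log2 CPM averaged 3 or more and whose groups did not overlap, some of them named, with Mmrn1 and Ccl21 above a log2 fold change of 8.

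Among DEG whose log2 CPM averaged 3 or more over both groups and whose groups did not overlap, the largest rises were in a pair of genes of lymphatic endothelium. Several of the rises named below had low healthy levels and passed this limit through the cirrhotic libraries. The size of their fold changes rests on those low healthy values. Mmrn1 (ENSRNOG00000024986), which encodes the secreted protein multimerin 1, was between 0.126 and 0.735 CPM in healthy LSECs (median 0.322) and between 60.2 and 289 CPM in cirrhotic CCl4-LSECs (median 141), a log2 fold change of 8.70 with a standard error of 0.65 (adjusted p = 1.13e-05). Ccl21 (ENSRNOG00000034290), a chemokine that draws dendritic cells and T cells towards lymphatic vessels, was between 1.09 and 7.07 CPM in healthy LSECs (median 3.53) and between 464 and 2018 CPM in cirrhotic CCl4-LSECs (median 839.7), a log2 fold change of 8.33 with a standard error of 0.53 (adjusted p = 7.48e-06). That every cirrhotic library lay above every healthy library in both genes was a condition of their choice. Within the cirrhosis group both were highest in replicates 2 and 6 and lowest in replicates 1 and 3.

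The other large rises were spread over several functions. Ednrb, a receptor for endothelin, was between 25.3 and 80.04 CPM in healthy LSECs (median 48.5) and between 384 and 1131 CPM in cirrhotic CCl4-LSECs (median 698), a log2 fold change of 3.88 with a standard error of 0.29 (adjusted p = 1.13e-05). Il6, a cytokine of the acute-phase response, was between 0.576 and 5.27 CPM in healthy LSECs (median 1.87) and between 25.5 and 39.6 CPM in cirrhotic CCl4-LSECs (median 32.6), a log2 fold change of 4.17 with a standard error of 0.34 (adjusted p = 2.43e-05). Lpl, the lipase that frees fatty acids from circulating triglycerides, was between 0.974 and 3.0 CPM in healthy LSECs (median 2.45) and between 20.3 and 50.5 CPM in cirrhotic CCl4-LSECs (median 38.1), a log2 fold change of 4.16 with a standard error of 0.35 (adjusted p = 2.43e-05). None of these genes overlapped between the groups, which was a condition of their choice. Clic5, of the chloride intracellular channel family, had a log2 fold change of 4.63 ± 0.54, Mmp12, the macrophage metalloelastase, of 4.24 ± 0.53, and Pnoc, the precursor of nociceptin, of 4.11 ± 0.52 (log2 fold change ± standard error). Matrix and protease genes followed, with the serine protease Prss23 at 4.02 ± 0.35, the metalloproteinase Adamts12 at 3.93 ± 0.37, the calcification inhibitor Mgp at 3.93 ± 0.33 and the matricellular gene Sparcl1 at 3.41 ± 0.41. Cyp1b1, a cytochrome induced through the aryl hydrocarbon receptor, was at 3.67 ± 0.73, Abcc9, a subunit of ATP-sensitive potassium channels, at 3.53 ± 0.48, and Anxa1, a phospholipid-binding protein with anti-inflammatory functions, at 3.53 ± 0.36. Adjusted p-values of these 10 genes were at most 0.00126. Macrophage markers, given here beside Mmp12, summed to 622 to 4547 CPM in healthy and 1453 to 3974 CPM in cirrhotic libraries, with 2 of 16 higher and none lower. Of the 10 genes, Cyp1b1 varied most among the cirrhotic libraries, from 9.03 CPM in replicate 1 to 173 CPM in replicate 6.

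Under the same limits of expression and overlap, the largest fall was in Cntfr, the ligand-binding receptor of ciliary neurotrophic factor. It was between 47.8 and 118 CPM in healthy LSECs (median 91.8) and between 2.91 and 14.1 CPM in cirrhotic CCl4-LSECs (median 9.79), a log2 fold change of -3.35 with a standard error of 0.35 (adjusted p = 6.12e-05). Ptpru, a receptor tyrosine phosphatase, was between 79.99 and 194 CPM in healthy LSECs (median 141) and between 7.76 and 25.1 CPM in cirrhotic CCl4-LSECs (median 18), a log2 fold change of -3.01 with a standard error of 0.28 (adjusted p = 4.26e-05). Slco2b1, an organic anion transporter, was between 120.2 and 234 CPM in healthy LSECs (median 182) and between 16 and 59.4 CPM in cirrhotic CCl4-LSECs (median 25.6), a log2 fold change of -2.56 with a standard error of 0.29 (adjusted p = 8.12e-05). All cirrhotic libraries lay below all healthy ones in these genes, as their choice required, without reaching 0. Lrg1, a secreted glycoprotein that acts on TGF-beta signalling in endothelium, was between 629.5 and 2407 CPM in healthy LSECs (median 1804) and between 239 and 390.3 CPM in cirrhotic CCl4-LSECs (median 304), a log2 fold change of -2.38 with a standard error of 0.28 (adjusted p = 9.33e-05). Islr, a secreted leucine-rich repeat protein, was between 373 and 1034 CPM in healthy LSECs (median 824) and between 79.7 and 199 CPM in cirrhotic CCl4-LSECs (median 139), a log2 fold change of -2.43 with a standard error of 0.29 (adjusted p = 9.53e-05). Both remained well expressed in cirrhosis. Log2 fold changes were -2.84 ± 0.25 for Jph3, a junctophilin, -2.83 ± 0.24 for Tmem132e, -2.55 ± 0.26 for Kcp, which modulates BMP signalling, -2.5 ± 0.27 for the homeobox gene Hoxb5 and -2.47 ± 0.28 for Gpr153. Genes of metabolism among the falls were the aldehyde reductase Akr7a2 (-2.5 ± 0.40), the glycine enzyme Gcat (-2.44 ± 0.47) and the sulfurtransferase Tst (-2.37 ± 0.32), and Rtn4rl2, a homologue of the Nogo receptor, fell by a similar size (-2.40 ± 0.38). Adjusted p-values of these 9 genes were at most 0.00108.

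Cers1, a ceramide synthase, was less certain than the other falls. It held 516 to 856 counts in the healthy libraries and 124 to 498 in cirrhotic replicates 1 to 5, while cirrhotic replicate 6 was listed at 0 (log2 fold change -3.34 with a standard error of 1.13, adjusted p = 0.0222). Without that library the log2 fold change was -1.90. Cers1 is known to share a transcript with Gdf1, and how reads were divided between them was not tested.

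**Figure D4:**
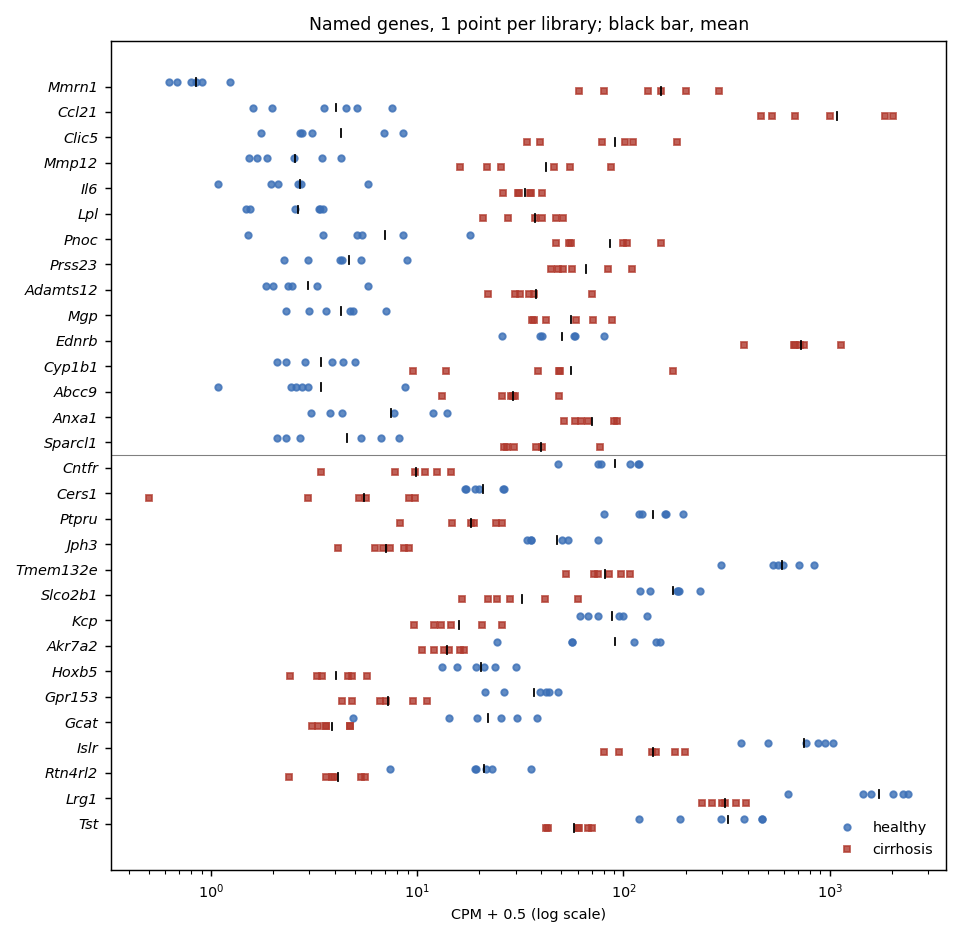
CPM plus 0.5 (log axis) of the 15 largest rises and, below the line, the 15 largest falls, all among DEG whose log2 CPM averaged 3 or more and whose groups did not overlap, 1 point per library, circles for healthy and squares for cirrhotic libraries, with the mean as a black bar. By that choice no gene overlaps between the groups, and Cers1 has 1 cirrhotic library at 0.

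A gene that was silent in one group and expressed in the other was looked for in raw counts, as under 3 counts in every library of one group and at least 30 in every library of the other. Fam205a met this. It had 1 count in healthy replicate 2, 0 in the other 5 healthy libraries and 47 to 402 counts in the cirrhotic libraries. No gene met it in the other direction.

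Genes of lymphatic endothelium were higher in 10 and lower in 1 of 15 tested, and the median log2 fold change was 3.05, against 0.07 over all genes. Beside Mmrn1 and Ccl21, Pdpn, the membrane glycoprotein podoplanin, was between 0.189 and 4.27 CPM in healthy LSECs (median 1.18) and between 9.92 and 27.6 CPM in cirrhotic CCl4-LSECs (median 19.2), a log2 fold change of 4.07 with a standard error of 0.56 (adjusted p = 0.000154). The semaphorin Sema3d (4.48 ± 0.50), the chemokine Ccl19 (4.26 ± 0.45) and Foxc2 (3.78 ± 0.65), a transcription factor of lymphatic valves, rose too. Tbx1, a transcription factor of lymphatic development, was a DEG with 0 to 2 counts in each healthy library and 29 to 221 counts in each cirrhotic library. Prox1, the factor that specifies lymphatic identity, rose by less, with 5.92 to 17.1 CPM (median 10.04) in healthy and 16 to 23 CPM (median 17.2) in cirrhotic libraries (log2 fold change 0.80 with a standard error of 0.21, adjusted p = 0.00594). Flt4, the receptor of VEGF-C, which LSECs carry as well, fell (-0.79 ± 0.15), though not with library size in place of TMM, while its ligand Vegfc rose (3.05 ± 0.27). Reln (0.29), Nrp2 (0.15), Itga9 (0.44) and Nr2f2 (0.26) were not DEG. The 6 cirrhotic libraries kept one order in Ccl21, Mmrn1 and Tbx1, from replicate 2 down through 6, 5, 4 and 3 to 1, and in Pdpn replicates 2 and 6 changed places. The 7 markers of lymphatic endothelial cells, 5 of them higher and 1 lower, summed to 946 to 1441 CPM in healthy and 1382 to 3144 CPM in cirrhotic libraries. Most of the healthy sum was Flt4, at 810 to 1228 CPM in healthy and 442 to 687 CPM in cirrhotic libraries. None of the 7 markers was at 0 in any library, and all 7 are also in the list above. The part of lymphatic endothelial cells in these rises was not tested.

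Genes of LSEC identity divided. Of 21 tested, 3 were higher and 5 lower (38.1% DEG, against 51.8% of all genes), and the median log2 fold change was 0.02. Stab1, a scavenger receptor that takes up modified lipoproteins, was between 2507 and 6632 CPM in healthy LSECs (median 4541) and between 836 and 1365 CPM in cirrhotic CCl4-LSECs (median 1050.3), a log2 fold change of -2.04 with a standard error of 0.22 (adjusted p = 6.72e-05). Its homologue Stab2, the receptor for hyaluronan, was between 1369 and 4460.3 CPM in healthy LSECs (median 3272) and between 2431 and 3679.9 CPM in cirrhotic CCl4-LSECs (median 2984) (log2 fold change 0.02, adjusted p = 0.953). All cirrhotic libraries lay below the healthy ones in Stab1, and the groups overlapped in Stab2. The orphan receptor Gpr182 (-1.47 ± 0.21), Oit3 (-0.99 ± 0.15), the nuclease Dnase1l3 (-0.86 ± 0.18) and the HDL receptor Scarb1 (-0.73 ± 0.19) also fell, and Lyve1 (0.75 ± 0.29), Clec1b (0.60 ± 0.23) and the fatty acid transporter Cd36 (1.40 ± 0.38) rose. Mannose receptor Mrc1 (-0.08) and Fcgr2b (0.33), which clears immune complexes, were not DEG. The rises of Lyve1 and Clec1b lay near the threshold. With edgeR, with DESeq2, and without any 1 of cirrhotic replicates 1, 2, 3, 5 and 6 or healthy replicates 1, 2 and 4, 1 gene was higher. Without healthy replicate 5, 5 genes were higher, and without replicates 5 and 6, 7 were higher and 6 lower.

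Of genes shared by all endothelium, 2 of 18 were higher and 9 lower (median -0.57). The TGF-beta coreceptor Eng was between 3529 and 8058 CPM in healthy LSECs (median 6136) and between 1770.5 and 2315 CPM in cirrhotic CCl4-LSECs (median 2067), a log2 fold change of -1.55 with a standard error of 0.19 (adjusted p = 0.000101). Icam2 (-1.43 ± 0.20), Rasip1 (-1.42 ± 0.21) and Tie1 (-0.98 ± 0.17) fell too, Kdr (-0.17), Ptprb (0.28) and Cd93 (-0.06) were not DEG, and the tight junction gene Cldn5 (2.65 ± 0.48) and the sialomucin Emcn (1.32 ± 0.26) rose. Markers of capillary endothelium divided, with 9 of 25 higher and 6 lower (median 0.46). Those higher included Sparcl1, Fabp4 (1.48 ± 0.37), which binds fatty acids, and Edn1 (1.36 ± 0.25). Those lower included Ly6e (-2.19 ± 0.29), Aqp1 (-1.10 ± 0.37) and Plvap (-0.95 ± 0.33), which builds the diaphragms of fenestrae. Vwf, of clotting and of large vessels, had a log2 fold change of 0.09 and was not a DEG. Genes of arteries and veins were higher in 8 and lower in 7 of 24, with Mgp and the elastic fibre gene Fbln5 (2.29 ± 0.27) among the rises and Ephb4 (-1.52 ± 0.22), a marker of veins, and Efna1 (-0.96 ± 0.23) among the falls.

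Vasoactive genes held rises of constrictors and falls of dilators, along with the opposite. Of 43 tested, 14 were higher and 11 lower. Endothelin 1, encoded by Edn1, was between 12.7 and 30.2 CPM in healthy LSECs (median 20.1) and between 35.7 and 81.5 CPM in cirrhotic CCl4-LSECs (median 45.5), and both endothelin receptors rose, Ednrb as given and Ednra to a median of 4.95 from 0.27 CPM (log2 fold change 3.77 with a standard error of 0.54, adjusted p = 0.000186). Nos3, the endothelial nitric oxide synthase, was between 485 and 1529 CPM in healthy LSECs (median 980.2) and between 343 and 442 CPM in cirrhotic CCl4-LSECs (median 368), a log2 fold change of -1.32 with a standard error of 0.22 (adjusted p = 0.00038). No cirrhotic library reached the lowest healthy one in Nos3. Npr1, the receptor for natriuretic peptides (-1.74 ± 0.20), Ptgis, the prostacyclin synthase (-1.74 ± 0.32), Tbxa2r, the thromboxane receptor (-1.86 ± 0.20), and the phosphodiesterase Pde2a (-1.16 ± 0.19) fell. Ptgs2, the inducible cyclooxygenase (2.36 ± 0.31), Gucy1a3, a subunit of the nitric oxide receptor (3.21 ± 0.46), and Pde3a (2.73 ± 0.42) rose. Ptgs1 (-0.37) and Hmox1 (-0.37) were not DEG.

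Of growth factor receptors, 15 of 41 were higher and 6 lower (51.2% DEG, against 51.8% of all genes). Pdgfra (2.96 ± 0.52) and Pdgfrb (2.48 ± 0.36), both also markers of stellate cells, the insulin receptor Insr (2.32 ± 0.30) and the sphingosine 1-phosphate receptor S1pr3 (1.94 ± 0.30) rose, and Plxnd1 (-1.28 ± 0.15) fell. Of endothelial transcription factors, 14 of 46 were higher and 8 lower (47.8% DEG). Heyl, a Notch target, was between 0.410 and 1.41 CPM in healthy LSECs (median 0.890) and between 3.34 and 8.43 CPM in cirrhotic CCl4-LSECs (median 6.14), a log2 fold change of 2.78 with a standard error of 0.35 (adjusted p = 0.000114). Mecom (1.81 ± 0.39) and Erg (1.64 ± 0.39) rose, while Klf2, which responds to shear stress (-1.44 ± 0.30), Gata4, which maintains LSEC identity (-1.16 ± 0.16), and Sox18 (-1.18 ± 0.27) fell. In the Notch pathway, 6 of 25 genes were higher and 8 lower. The receptors Notch1 (-0.92 ± 0.16) and Notch4 (-0.98 ± 0.27), the ligand Dll4 (-1.65 ± 0.17) and the glycosyltransferases Mfng (-1.42 ± 0.18), Rfng (-1.68 ± 0.25) and Lfng (-1.04 ± 0.32) were lower, and Notch3 (2.54 ± 0.48), the ligand Jag1 (1.0 ± 0.25) and Hey2 (2.33 ± 0.37) higher. Dll4 was between 555 and 826 CPM in healthy LSECs (median 719) and between 169 and 283 CPM in cirrhotic CCl4-LSECs (median 242), without overlap. Notch3, Pdgfra, Pdgfrb and Ednra are also expressed by stellate cells, whose 14 markers summed to the higher levels in cirrhosis given above, and the part of those cells in these rises was not tested.

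Of 44 genes of the TGF-beta and BMP pathway, 15 were higher and 8 lower (52.3% DEG, against 51.8% of all genes). Bmp4 was between 1.28 and 5.23 CPM in healthy LSECs (median 3.12) and between 13.2 and 26.9 CPM in cirrhotic CCl4-LSECs (median 17.1), a log2 fold change of 2.56 with a standard error of 0.31 (adjusted p = 9.62e-05), and no library overlapped. The signalling repressor Skil (2.10 ± 0.30) and the receptor Bmpr2 (1.64 ± 0.34) rose as well. Acvrl1, which acts with Eng in endothelial BMP signalling (-1.13 ± 0.17), and the targets Smad6 (-1.36 ± 0.21) and Id3 (-1.10 ± 0.17) fell, and the ligand Bmp2 (-0.01) and the receptor Tgfbr2 (-0.23) were not DEG.

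Genes of fibrillar collagens and matrix rose in 25 and fell in 3 of 40, with a median log2 fold change of 1.21. Decorin, encoded by Dcn, was between 0.216 and 2.25 CPM in healthy LSECs (median 1.03) and between 10.03 and 20.1 CPM in cirrhotic CCl4-LSECs (median 13.9), a log2 fold change of 4.11 with a standard error of 0.45 (adjusted p = 7.24e-05). Col12a1 (3.72 ± 0.49), Col8a1 (3.67 ± 0.50) and the collagen cross-linker Lox (3.44 ± 0.52) did not overlap between the groups either. Islr, Emilin1 (-1.47 ± 0.21) and Loxl3 (-1.29 ± 0.25) were the 3 that fell, and Sparc (-0.05) and Fn1 (0.66) were not DEG. Markers of stellate cells and fibroblasts moved with this list. Of the 14 tested, 11 were higher, among them Rgs5 (4.59 ± 0.31), Acta2 (3.11 ± 0.46) and Tagln (2.38 ± 0.32), Gfap was lower (-0.93 ± 0.35), and Des (0.47) and Ngfr (0.26) were not DEG. None of these 14 markers was at 0 in a cirrhotic library. Their summed level was lowest in cirrhotic replicate 5, at 469 CPM, below healthy replicate 6 at 550.0 CPM. Most of these sums was Col3a1, at 351 CPM in cirrhotic replicate 5 and 426 CPM in healthy replicate 6. Of the 14 markers, 7 were higher in every cirrhotic library than in every healthy one. The part of these cells in the rise of matrix genes was not tested. The fall of Gfap was lost with edgeR, with DESeq2 and without any 1 of cirrhotic replicates 2, 4, 5 and 6 or healthy replicates 3 and 5. Dcn and Lum (3.71 ± 0.66) are in both lists.

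Of 28 basement membrane genes, 9 were higher and 5 lower (50% DEG, against 51.8% of all genes). Lamb1 was between 1.91 and 10.01 CPM in healthy LSECs (median 4.78) and between 20.6 and 63 CPM in cirrhotic CCl4-LSECs (median 40.4), a log2 fold change of 3.14 with a standard error of 0.38 (adjusted p = 9.62e-05), and the laminin receptor Itga6 rose as well (2.30 ± 0.26). Lamb2 (-1.16 ± 0.19), Agrn (-1.30 ± 0.18) and Col4a2 (-0.83 ± 0.19) fell, and Col4a1 (-0.43) was not a DEG. Metalloproteinases and inhibitors were higher in 10 and lower in 3 of 26 (50% DEG). Mmp12 and Adamts9 (1.88 ± 0.25) were among the rises and Mmp15 (-1.65 ± 0.20) and Mmp17 (-1.57 ± 0.22) among the falls. Of the inhibitors, Timp2 rose (0.78 ± 0.22), while Timp1 (0.57) and Timp3 (-0.03) were not DEG. Without healthy replicates 5 and 6, or without replicate 5 alone, 5 genes of this list were lower. Coagulation and fibrinolysis genes were higher in 11 and lower in 2 of 29 (44.8% DEG). Plat, the tissue plasminogen activator, was between 126 and 248 CPM in healthy LSECs (median 186) and between 611 and 1531 CPM in cirrhotic CCl4-LSECs (median 804), a log2 fold change of 2.22 with a standard error of 0.24 (adjusted p = 6.94e-05). It rose without overlap and was highest in cirrhotic replicate 6. Gas6 (-1.43 ± 0.22) and Mmrn2 (-1.25 ± 0.18) were the 2 that fell.

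**Figure D5:**
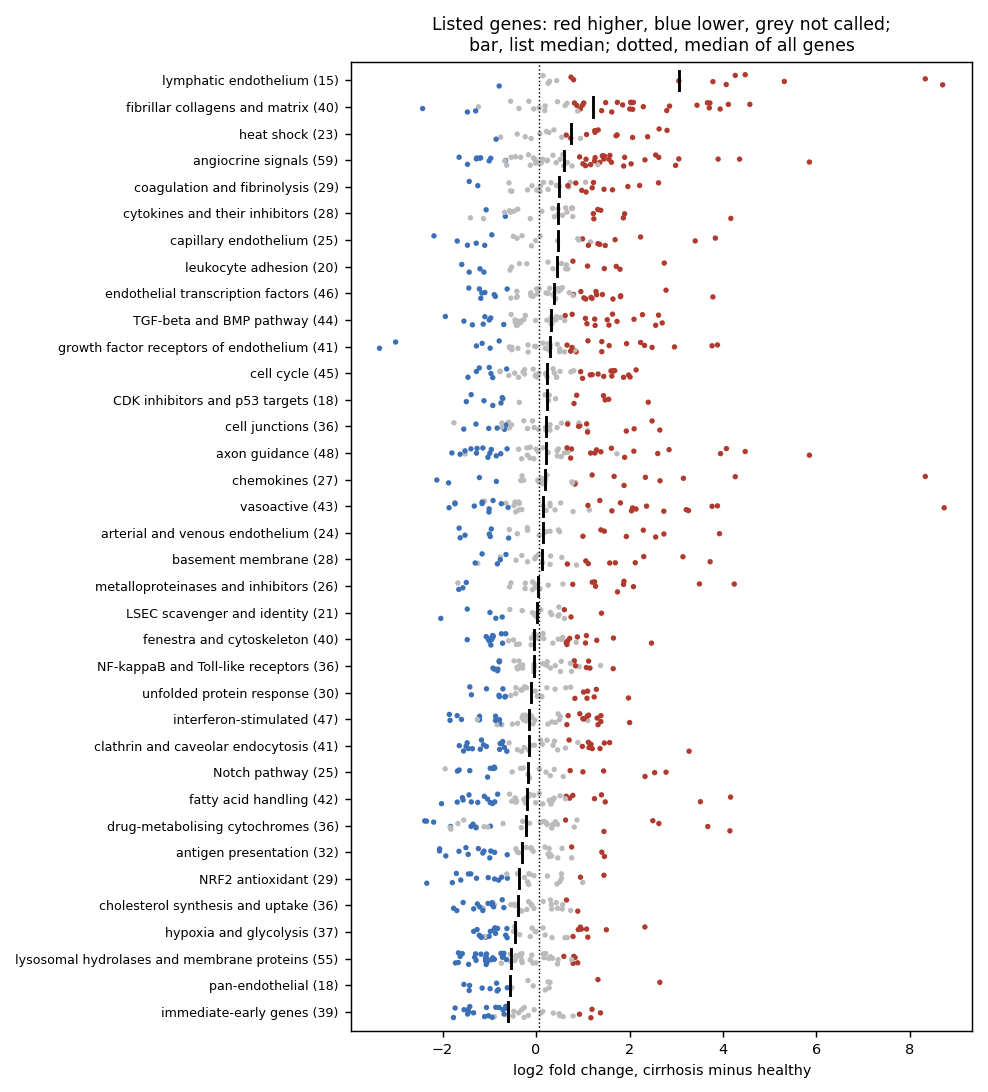
Log2 fold change of cirrhosis minus healthy for each tested gene of 36 function lists (number tested in brackets), red for higher, blue for lower and grey for no DEG, with the list median as a bar and the median of all genes dotted. Lymphatic genes have the highest median, 3.05, and immediate-early genes the lowest, -0.60, among these lists.

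Signals that endothelium sends to its neighbours, called angiocrine, were higher in 26 and lower in 9 of 59 genes tested (median 0.59). The growth factor pleiotrophin, encoded by Ptn, was between 0.512 and 2.68 CPM in healthy LSECs (median 0.843) and between 11.6 and 29.9 CPM in cirrhotic CCl4-LSECs (median 22.1), a log2 fold change of 4.35 with a standard error of 0.43 (adjusted p = 5.63e-05). Sema3a, a repulsive guidance cue, was between 0.0361 and 0.410 CPM in healthy LSECs (median 0.125) and between 4.82 and 18.5 CPM in cirrhotic CCl4-LSECs (median 8.14), a log2 fold change of 5.85 with a standard error of 0.59 (adjusted p = 5.63e-05). Igfbp5 (2.99 ± 0.45) was highest in cirrhotic replicate 6. Osteopontin, encoded by Spp1 (3.89 ± 1.03), rose as well and is also a marker of cholangiocytes. Of 8 cholangiocyte markers tested, 4 were higher, Spp1 and Epcam (2.95 ± 0.47) among them, and none lower. Krt19 (-0.40) and Krt7 (-0.84) were not DEG. The part of cholangiocytes in the rise of Spp1 was not tested. The lower genes included Dll4, Apln (-1.47 ± 0.33), Grn (-1.27 ± 0.25) and Igfbp4 (-1.19 ± 0.18), and Igfbp7 (0.01) and Hbegf (-0.67) were not DEG. Axon guidance genes were higher in 16 and lower in 13 of 48 (13 and 14 with edgeR), with Robo2 (4.07 ± 0.69) beside the semaphorins and Sema6b (-1.80 ± 0.31) and Epha2 (-1.40 ± 0.23) in the other direction.

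Chemokines moved both ways, and 9 of 27 were higher, Ccl21 and Ccl19 among them, and 4 lower (48.1% DEG, against 51.8% of all genes). Ccl7 (1.67 ± 0.31), which draws monocytes, and Cxcl14 (2.34 ± 0.41) rose. Ccl5 (-2.12 ± 0.71) and Cxcl10 (-0.85 ± 0.27), which act on T and NK cells, fell, as did Xcl1 (-1.87 ± 0.28) and Ccl24 (-1.21 ± 0.22). T and NK cell markers were lower in 4 of 13 and higher in none (1 to 3 were higher without any 1 of cirrhotic replicate 3 and healthy replicates 1, 2 and 4), with Lck (-1.15 ± 0.24), Prf1 (-1.88 ± 0.70), Gzma (-1.90 ± 0.58) and Gzmb (-1.97 ± 0.66) being those lower. The T-cell receptor complex genes Cd3g (2.11 ± 0.87), Cd3d (1.78 ± 0.80) and Cd3e (1.62 ± 0.69) had positive log2 fold changes and were not DEG. In healthy replicates 1 and 2 the 13 markers summed to 620 and 369 CPM. Their part in the fall of these chemokines was not tested. Cytokine genes were higher in 8 and lower in 2 of 28 (35.7% DEG). The lower genes numbered 4 with edgeR, with DESeq2, without healthy replicate 1 and without healthy replicate 6, and 5 without healthy replicates 5 and 6. Il33, an alarmin of endothelium, was between 71.6 and 162 CPM in healthy LSECs (median 84.9) and between 182 and 300.4 CPM in cirrhotic CCl4-LSECs (median 229), a log2 fold change of 1.32 with a standard error of 0.21 (adjusted p = 0.000313), and its cirrhotic libraries had the same order as those of Ccl21. Il18 rose (1.89 ± 0.38) and its inhibitor Il18bp fell (-1.07 ± 0.26). Il1b (0.63) was not a DEG.

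Adhesion molecules for leukocytes were higher in 6 and lower in 4 of 20 (5 and 6 without healthy replicate 6), or 50% DEG, against 51.8% of all genes. E-selectin, encoded by Sele, was between 9.27 and 31.9 CPM in healthy LSECs (median 14.5) and between 58.8 and 184 CPM in cirrhotic CCl4-LSECs (median 102), a log2 fold change of 2.74 with a standard error of 0.35 (adjusted p = 0.000119), and P-selectin, encoded by Selp, rose with overlap (1.46 ± 0.44). Icam1 was between 4799.9 and 19582 CPM in healthy LSECs (median 10122) and between 3350.3 and 5336 CPM in cirrhotic CCl4-LSECs (median 4394), a log2 fold change of -1.20 with a standard error of 0.27 (adjusted p = 0.00233), and Vcam1 (0.68) was not a DEG.

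Genes of antigen presentation were lower in 13 and higher in 3 of 32 (50% DEG, against 51.8% of all genes). The falls lay in class I genes and their processing. RT1-A2 was between 797 and 2652 CPM in healthy LSECs (median 2007) and between 348 and 620.0 CPM in cirrhotic CCl4-LSECs (median 429), a log2 fold change of -1.93 with a standard error of 0.30 (adjusted p = 0.000264), and RT1-CE5 (-2.07 ± 0.29), RT1-A1 (-2.07 ± 0.29), the peptide transporter Tap2 (-1.45 ± 0.23) and the immunoproteasome subunit Psmb10 (-1.5 ± 0.28) were lower. Class I genes of the rat have near-identical copies between which the counts are divided by estimate, so single members are uncertain. B2m (0.55), which pairs with class I, and the class II genes Cd74 (0.30) and RT1-Da (0.19) were not DEG, and the costimulators Cd86 (1.46 ± 0.34) and Cd80 (1.41 ± 0.57) rose. Without healthy replicate 2, 1 gene was higher. Interferon-stimulated genes were divided, with 12 of 47 higher and 11 lower (48.9% DEG). Fewer were higher than lower with edgeR, with DESeq2 and without any 1 of cirrhotic replicates 5 and 6 and healthy replicate 5. Gbp2 (1.39 ± 0.30), Ifit2 (1.39 ± 0.30) and Ifih1 (1.33 ± 0.37) were higher, Irf7 (-1.60 ± 0.35), Ifi27 (-1.69 ± 0.24) and Bst2 (-1.21 ± 0.22) lower, and Isg15 (-0.09) was not a DEG. Of 36 genes of NF-kappaB and Toll-like receptors, 33.3% were DEG. Of the 36, 6 were higher, among them Tlr4 (1.15 ± 0.34) and the interleukin 1 receptor Il1r1 (1.08 ± 0.21), and 6 lower, among them Rela (-0.82 ± 0.20) and Myd88 (-0.79 ± 0.20). Without healthy replicates 5 and 6, 10 were lower, and with library size in place of TMM none.

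Heat shock genes were higher in 12 and lower in 1 of 23 (median 0.74). Chaperones of this list keep proteins folded under stress, and their promoters are known to hold heat shock elements, built from the letters GAANNTTC. The 250 bases before the start of a pair of these genes are shown because they hold the letters, in capitals (RefSeq, build GRCr8, plus strand in both). Hsph1 lies at chr12:10427118-10427367 and Dnaja1 at chr5:60638154-60638403.
Hsph1: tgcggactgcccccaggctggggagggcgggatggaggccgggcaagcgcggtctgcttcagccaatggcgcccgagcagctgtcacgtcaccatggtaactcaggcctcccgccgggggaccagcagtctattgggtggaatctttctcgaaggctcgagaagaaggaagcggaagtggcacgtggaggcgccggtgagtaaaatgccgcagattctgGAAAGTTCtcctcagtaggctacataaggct
Dnaja1: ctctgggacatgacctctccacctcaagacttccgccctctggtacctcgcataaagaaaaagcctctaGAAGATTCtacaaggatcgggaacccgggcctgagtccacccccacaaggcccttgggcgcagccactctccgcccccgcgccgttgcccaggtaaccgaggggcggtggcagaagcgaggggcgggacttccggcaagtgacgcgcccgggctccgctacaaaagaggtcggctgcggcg
The letters read the same on both strands. They were in 9 of the 19 listed heat shock genes with a promoter in the table and in 7.23% of all 33469 promoters of the same length. A match is a description of the letters and not of a bound site.

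Hsph1 was between 152 and 804 CPM in healthy LSECs (median 317) and between 542 and 4408 CPM in cirrhotic CCl4-LSECs (median 1807), a log2 fold change of 2.39 with a standard error of 0.50 (adjusted p = 0.00169), and Dnaja1 was between 166 and 817 CPM in healthy LSECs (median 361) and between 996 and 2765 CPM in cirrhotic CCl4-LSECs (median 1615), a log2 fold change of 2.07 with a standard error of 0.39 (adjusted p = 0.000831). No library overlapped in Dnaja1. Hsp90aa1 (2.63 ± 0.57), Hspd1 (1.71 ± 0.41) and Cryab (2.80 ± 0.34) were higher too. The cirrhotic libraries had one order in Hsph1, Hsp90aa1, Dnaja1 and Hspd1, from replicate 3 down through 4, 5, 1 and 6 to 2, and healthy replicate 6 was the highest healthy library in each. In Hsph1, Hsp90aa1 and Hspd1 it lay above cirrhotic replicate 2. The inducible Hspa1a (0.27) and Hspa1b (0.22), which are near-identical copies, were not DEG, and Hsf1, which drives these genes, fell (-0.86 ± 0.16), though not with library size in place of TMM. Without cirrhotic replicate 3, 2 genes were lower.

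Immediate-early genes, which respond within minutes to growth factors and to cell dissociation, were lower in 18 and higher in 4 of 39 (median -0.60). Zfp36, which destabilises cytokine mRNAs, was between 7001 and 14456 CPM in healthy LSECs (median 12225) and between 2514 and 6431 CPM in cirrhotic CCl4-LSECs (median 3446), a log2 fold change of -1.54 with a standard error of 0.26 (adjusted p = 0.000406). Dusp1 (-1.73 ± 0.32), Junb (-1.47 ± 0.24) and Ier2 (-1.46 ± 0.25) fell, Klf6 (1.20 ± 0.32) and Myc (0.93 ± 0.31) rose, and Egr1 (-0.48), Jun (-0.37) and Atf3 (-0.31) were not DEG. The unfolded protein response divided, with 7 of 30 higher and 8 lower (50% DEG, against 51.8% of all genes). The chaperones Hspa5 (1.09 ± 0.16) and Hsp90b1 (1.98 ± 0.29) rose, and Trib3 (-1.42 ± 0.20) and Ppp1r15a (-1.06 ± 0.21) fell.

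Genes of hypoxia and glycolysis were lower in 15 and higher in 8 of 37. Glycolytic enzymes were among those lower, with Aldoa at between 557 and 1847 CPM in healthy LSECs (median 1405) and between 429 and 547 CPM in cirrhotic CCl4-LSECs (median 465), a log2 fold change of -1.34 with a standard error of 0.25 (adjusted p = 0.000895) and Pkm (-1.26 ± 0.27), Eno1 (-1.22 ± 0.22) and Tpi1 (-1.18 ± 0.20) beside it. Hif1a, the hypoxia factor, rose (1.5 ± 0.29), as did Egln3 (2.33 ± 0.50), which marks it for degradation. Antioxidant genes of the NRF2 pathway were lower in 12 and higher in 2 of 29 (48.3% DEG, against 51.8% of all genes). Gstp1 was between 360.4 and 1744 CPM in healthy LSECs (median 844) and between 110.2 and 234 CPM in cirrhotic CCl4-LSECs (median 163), a log2 fold change of -2.34 with a standard error of 0.31 (adjusted p = 0.000145). Gpx4 (-1.79 ± 0.24), Gpx1 (-1.61 ± 0.30) and Keap1 (-1.40 ± 0.18), the inhibitor of NRF2, were lower, and Nfe2l2, which encodes NRF2, was higher (0.95 ± 0.16). The higher genes numbered 4 without cirrhotic replicate 2, 5 without healthy replicate 3, and 1 without any 1 of cirrhotic replicates 1, 4 and 5 or healthy replicates 2, 4 and 5.

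Of 36 drug-metabolising cytochromes and their regulators, 6 were higher and 8 lower (38.9% DEG, against 51.8% of all genes). Those higher were the aryl hydrocarbon receptor Ahr, a sensor of aromatic compounds, Cyp1a1, Cyp1b1, Ahrr and Tiparp, which are known to be induced through it, and Cyp2c12. With its partner the receptor is known to bind DNA at the letters GCGTG. The 250 bases before 3 of these genes are shown because they hold that core, in capitals on either strand (RefSeq, build GRCr8, plus strand in all). They are chr6:21094315-21094564 for Cyp1b1, chr1:30821969-30822218 for Ahrr, which represses the receptor, and chr2:152063519-152063768 for Tiparp, which modifies it.
Cyp1b1: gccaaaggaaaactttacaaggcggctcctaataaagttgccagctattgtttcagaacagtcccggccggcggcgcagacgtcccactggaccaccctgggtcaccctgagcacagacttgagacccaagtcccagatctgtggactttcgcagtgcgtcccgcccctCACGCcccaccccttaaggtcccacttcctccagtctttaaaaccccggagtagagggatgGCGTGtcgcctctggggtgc
Ahrr: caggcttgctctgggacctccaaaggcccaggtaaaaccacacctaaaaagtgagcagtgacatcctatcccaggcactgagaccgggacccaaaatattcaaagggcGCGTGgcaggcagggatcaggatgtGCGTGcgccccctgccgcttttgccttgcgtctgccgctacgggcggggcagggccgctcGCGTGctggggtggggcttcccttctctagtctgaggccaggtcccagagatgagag
Tiparp: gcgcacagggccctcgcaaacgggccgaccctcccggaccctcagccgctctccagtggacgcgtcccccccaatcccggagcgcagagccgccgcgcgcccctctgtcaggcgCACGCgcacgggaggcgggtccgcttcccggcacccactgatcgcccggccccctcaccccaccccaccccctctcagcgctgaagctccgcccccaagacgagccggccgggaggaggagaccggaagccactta
The core was in 4 of the 6 listed genes of this pathway with a single promoter to search, and in 25.9% of all 33469 promoters of the same length. The fourth gene was Arnt, the partner of the receptor. Ahr and Cyp1a2 held no match, and Cyp1a1 had no single promoter to search. Here too a match describes the letters and not a bound site.

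Cyp1b1 was between 1.6 and 4.48 CPM in healthy LSECs (median 2.86) and between 9.03 and 173 CPM in cirrhotic CCl4-LSECs (median 42.9), and Tiparp was between 51.8 and 196 CPM in healthy LSECs (median 122) and between 249.6 and 375 CPM in cirrhotic CCl4-LSECs (median 333), a log2 fold change of 1.45 with a standard error of 0.28 (adjusted p = 0.00102). Cyp1a1, the classical target, had 0.0759 to 0.478 CPM (median 0.235) in healthy and 0.468 to 59.9 CPM (median 4.95) in cirrhotic libraries (log2 fold change 4.15 with a standard error of 1.40, adjusted p = 0.0216). Cirrhotic replicate 6 was the highest library in Cyp1a1, Cyp1b1 and Ahrr (2.63 ± 0.81), and the groups overlapped in Cyp1a1 and Ahrr. The receptor itself, Ahr, rose by a log2 fold change of 0.63 ± 0.25. Among the falls were Cyp27a1 (-1.83 ± 0.17), which oxidises sterols, Cyp4b1 (-1.39 ± 0.23), Cyp2d4 (-2.19 ± 0.23) and the electron donor Por (-1.35 ± 0.24). Falls numbered 14 with edgeR, 15 with DESeq2, 15 without healthy replicate 5 and 13 without replicates 5 and 6. Hepatocyte markers were lower in 3 of 17 and higher in none, with Serpina1 (-1.90 ± 0.67) among them and Alb (0.23) not a DEG. The lower markers numbered 5 with edgeR, 7 with DESeq2 and without healthy replicate 5, 6 without replicates 5 and 6, and 1 without any 1 of cirrhotic replicates 4 and 6 or healthy replicates 1 and 4. Their part in the falls of cytochromes was not tested.

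Lysosomal genes were lower in 25 and higher in 5 of 55 (median -0.55). The protease cathepsin D, encoded by Ctsd, was between 914 and 3107 CPM in healthy LSECs (median 2274) and between 577 and 776 CPM in cirrhotic CCl4-LSECs (median 612), a log2 fold change of -1.73 with a standard error of 0.25 (adjusted p = 0.000187). Smpd1, the acid sphingomyelinase (-1.66 ± 0.18), Gaa, which degrades glycogen (-1.63 ± 0.23), and Naglu (-1.58 ± 0.21) fell without overlap, while the membrane protein Lamp2 (0.79 ± 0.18) rose and Ctsl (-0.30), Ctsb (-0.55) and Lamp1 (-0.09) were not DEG. Genes of clathrin and caveolar endocytosis were lower in 16 and higher in 10 of 41. The adaptor subunits Ap2s1 (-1.64 ± 0.21) and Ap1b1 (-1.45 ± 0.16) and the flotillin Flot2 (-1.48 ± 0.20) were lower, and Picalm (1.17 ± 0.30) and the endosomal genes Eea1 (1.57 ± 0.41) and Vps35 (1.20 ± 0.32) higher.

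Genes of cholesterol synthesis and uptake were lower in 13 and higher in 2 of 36 (41.7% DEG, against 51.8% of all genes). The sterol reductase Dhcr7 was between 11.4 and 49.2 CPM in healthy LSECs (median 25.8) and between 6.07 and 11.7 CPM in cirrhotic CCl4-LSECs (median 7.2), a log2 fold change of -1.70 with a standard error of 0.35 (adjusted p = 0.00145), and the groups overlapped. Scap, which escorts the sterol sensor (-1.34 ± 0.20), and the mevalonate kinase Mvk (-1.56 ± 0.22) fell, and Sqle rose (0.65 ± 0.16). The higher genes numbered 1 without healthy replicate 5, 5 without replicate 6 and 4 without both. In fatty acid handling, 8 of 42 were higher and 13 lower (50% DEG). Lpl, Cd36 and Fabp4 rose, and Gpihbp1, which anchors Lpl to capillaries (-1.69 ± 0.34), the transporters Slc27a1 (-1.44 ± 0.24) and Slc27a4 (-2.02 ± 0.24) and the lipase Lipe (-1.39 ± 0.17) fell.

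Cytoskeletal genes were lower in 13 and higher in 10 of 40. Rock2, a kinase of actomyosin contraction, was between 5.69 and 50.01 CPM in healthy LSECs (median 22.2) and between 75.9 and 128 CPM in cirrhotic CCl4-LSECs (median 107), a log2 fold change of 2.47 with a standard error of 0.44 (adjusted p = 0.000631), and Tpm4 rose (1.06 ± 0.18), while Actb (-1.0 ± 0.18), Tln1 (-1.07 ± 0.16) and Zyx (-1.47 ± 0.27) fell. Junction genes were higher in 9 and lower in 6 of 36 (41.7% DEG, against 51.8% of all genes). The gap junction gene Gja1 (2.48 ± 0.28) and N-cadherin, encoded by Cdh2 (2.10 ± 0.33), were among the rises. Nectin2 (-1.55 ± 0.25) and Esam (-0.83 ± 0.29) were among the falls, and Cdh5 (0.30) was not a DEG. The lower junction genes numbered 10 with DESeq2 and without healthy replicate 5, and 11 without replicates 5 and 6.

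Cell cycle genes were higher in 15 and lower in 7 of 45 (48.9% DEG, against 51.8% of all genes). The mitotic genes Mki67 (1.68 ± 0.41), Prc1 (1.66 ± 0.32) and Bub1 (2.01 ± 0.49) rose, and Ccnd3 (-1.46 ± 0.23), Cdt1 (-1.28 ± 0.25) and Mcm2 (-1.0 ± 0.23), of the start of replication, fell. Pcna (-0.01) and Ccnd1 (0.06) were not DEG. Without healthy replicates 5 and 6, 11 were lower. Of 18 CDK inhibitors and p53 targets, 6 were higher and 7 lower. Cdkn2b (2.40 ± 0.33) and Gadd45a (1.44 ± 0.28) rose, and Cdkn1a, which encodes p21, was between 570.1 and 1531 CPM in healthy LSECs (median 1104) and between 357 and 623 CPM in cirrhotic CCl4-LSECs (median 525), a log2 fold change of -1.12 with a standard error of 0.23 (adjusted p = 0.00141).

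The 15 rises and 15 falls that were largest under the limits of expression and overlap given above were followed at earlier stages, after 2 weeks (acute, 5 rats) and 6 weeks (fibrosis, 5 rats) of CCl4. Levels in this paragraph are CPM with TMM factors over the 22 CCl4 libraries. Ccl21 was 1.24 to 7.56 CPM in healthy, 0.253 to 0.444 in acute, 0.299 to 1.75 in fibrosis and 504 to 2144 in cirrhosis libraries, so that levels over 10 CPM were seen in cirrhosis alone among these 4 groups. Mmrn1 was 0.143 to 0.787, 0 to 0.109, 0 to 0.350 and 65.5 to 307 CPM in the same order, and Ednrb 27.2 to 86.4, 15.7 to 22.3, 27.3 to 40.2 and 417 to 1260.5. Cyp1b1 followed another course, with 1.71 to 5.08, 513 to 956, 318 to 729 and 9.83 to 193 CPM. Islr was 423 to 1115, 0.415 to 4.07, 1.75 to 5.49 and 88.9 to 215 CPM, lower at the earlier stages than in cirrhosis. Between cirrhosis and fibrosis, 25 of the 30 genes were DEG (limma-voom), where 63.8% of 15186 genes tested were. This fit used the same cirrhotic libraries by which the 30 genes were chosen, so it is not independent of that choice. Shares of all genes by direction are not given here. Of the 15 rises, 11 were higher at cirrhosis than at fibrosis, and Cyp1b1 (log2 fold change -3.65 with a standard error of 0.66, adjusted p = 0.000284) and Abcc9 (log2 fold change -1.08 with a standard error of 0.28, adjusted p = 0.00343) were lower. Of the 15 falls, 12 were higher at cirrhosis than at fibrosis and none lower. No batch is named in the labels, so an unnamed batch and the group cannot be told apart here or between cirrhotic and healthy LSECs.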

How the data were processed

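Per the study's methods, reads of strand-specific poly(A) libraries were mapped to Rnor_6.0 with STAR and quantified with RSEM. The submitters' processing notes also name FastQC, Trim Galore and limma (versions not given in the sources used here). The authors deposited, for each library, expected counts per gene, not normalized, and these were rounded to whole numbers here. RSEM divides reads of near-identical genes between them by estimate.

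Groups came from the treatment labels, and replicate numbers from the titles. Genes with low counts were removed with filterByExpr (minimum count 10, minimum total 15). limma-voom was run on TMM-scaled counts of the libraries compared, without covariates (R 4.3.3, limma 3.58.1, edgeR 4.0.16, DESeq2 1.42.0). Adjusted p-values are Benjamini-Hochberg values over all genes tested, and DEG had an adjusted p under 0.05 and a fold-change above 1.5. CPM used TMM factors over the 12 libraries unless stated, and log2 CPM a pseudocount of 0.5. Figures were drawn with matplotlib 3.10.9. The fits were tested on simulated data in which far fewer genes changed than here, evenly up and down. That test therefore cannot decide how the scaling affects the split of higher and lower DEG.

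The gene lists and the members were chosen with earlier results of these data known. By rule, the genes named were, among DEG, the 15 with the largest rise and the 15 with the largest fall (official symbol of a single gene, log2 CPM averaging 3 or more, groups not overlapping), the DEG of each list with the largest changes, its best-expressed other members, and genes silent in one group. Tbx1 and the remaining list members were named after their values were seen. In the lists, symbols absent from the files or carried by several genes have no value. Total counts ranged from 33742382 to 46464289 per library. No pair of libraries of one group agreed within sampling noise (chi-square per degree of freedom at least 60.04 over genes). The study states that the libraries of a group came from independent isolations. Alternatives were edgeR's quasi-likelihood test, DESeq2, unadjusted p-values, no fold-change threshold, other scalings and filters, library weights, a fit over the 4 CCl4 groups, a block for the replicate number, and leaving out each library in turn. Leaving out healthy replicates 5 and 6 together was added after seeing the data. Promoters came from RefSeq (GRCr8), another build than that of the counts, so no gene length or GC content was taken from it. The thioacetamide libraries were not used here. Some genes are not reported here.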

Additional observations from a re-analysis of the deposited data

Results flagged for a closer look

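Each group of 6 libraries was checked for a library far from the rest, as the gap between an extreme library and its neighbour divided by the range of the group (Dixon's ratio, on log2 CPM, critical value 0.625). This was done for 592 groups, and chance alone passes about 1 in 20 of them. Of these groups, 29 passed, against 29.6 by chance, and the library totals, scaling factors and cell type sums were not among them.

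Healthy replicate 3 was apart as the highest of its group in Apln (0.641). Healthy replicate 3 was apart as the lowest of its group in Hspa1b (0.676). Healthy replicate 6 was apart as the highest of its group in Ptn (0.71), Il33 (0.702) and Ifit2 (0.667). Healthy replicate 6 was apart as the lowest of its group in Acvrl1 (0.696), Epha2 (0.674), Flot2 (0.706), Gas6 (0.654), Actb (0.723), Tln1 (0.729), Hsf1 (0.625), Naglu (0.639), Mmp17 (0.65), Npr1 (0.711) and Tbxa2r (0.693). Cirrhotic replicate 1 was apart as the highest of its group in Lum (0.629) and Gfap (0.658). Cirrhotic replicate 2 was apart as the highest of its group in Jag1 (0.733), Nr2f2 (0.706) and Atf3 (0.708). Cirrhotic replicate 2 was apart as the lowest of its group in Ngfr (0.66). Cirrhotic replicate 3 was apart as the lowest of its group in Egln3 (0.647). Cirrhotic replicate 4 was apart as the lowest of its group in Mfng (0.641). Cirrhotic replicate 5 was apart as the lowest of its group in Des (0.651). Cirrhotic replicate 6 was apart as the highest of its group in Igfbp5 (0.684), Fabp4 (0.682), Tpm4 (0.646) and Lox (0.687).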

How the results depend on the processing

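The count of DEG stayed within 1.5 times of 7660 under every alternative run, from 6833 (without healthy replicate 4) to 9331 (without healthy replicates 5 and 6, chosen after seeing the data, with 96.9% of the DEG kept in the same direction). Leaving out 1 library gave 6833 to 8478 DEG, edgeR 7564 and DESeq2 7914. The count of lower DEG fell to 2303 with library size in place of TMM, where the higher DEG numbered 5724. Without TMM factors, which were higher in cirrhosis, the median log2 fold change of all genes was 0.42. The split of higher and lower genes was 3529 and 4035 with edgeR and 3807 and 4107 with DESeq2. The 15 rises and 15 falls named by rule kept their direction and stayed DEG under all alternatives run on them. They were chosen for large changes without overlap in these same libraries, which made this outcome likely in advance. The median of the vasoactive list changed sign, to -0.30 with edgeR and -0.28 with DESeq2, and the cause was not tested. Counts of list members moved by over 1.5 times in 36 of 96 with library size, 17 without healthy replicates 5 and 6, 12 with DESeq2, 9 with edgeR and 9 with the replicate block. Replicate numbers did not pair the libraries (correlations of same-numbered deviations from -0.25 to 0.29, positive in 3 of 6 pairs, with 1 library closest to its own number). With the replicate number as a block 7275 genes were DEG, 3574 higher and 3701 lower. Genes with a few counts per library, such as Tbx1 and Ahrr in healthy LSECs, are limited by depth.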
